A study of Mus musculus with 18 samples.

Results

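Gene expression was compared at day 10 of embryoid body differentiation between mouse cells carrying the K19R form of EED and cells carrying FLAG-tagged EED of wildtype sequence. Embryoid bodies are aggregates in which embryonic stem cells differentiate in suspension. The comparison used the 4 libraries that the labels place at day 10 in these genotypes, out of 18 in the series, and every gene of the count table. Both genotypes were knock-in lines: FLAG-WT cells carried FLAG-tagged wildtype EED, and K19R cells carried FLAG-tagged EED with arginine in place of lysine 19, and the arginine side chain is no substrate for acetyltransferases. Both lines had been kept as stem cells (mESCs) in leukemia inhibitory factor (LIF) plus 2i, a pair of inhibitors that block MEK and GSK3, and both grew without LIF and 2i for the 10 days in suspension. Each group held 2 libraries of total RNA. Stem cells at day 0, in LIF and 2i, and embryoid bodies at day 6, with 2 libraries per genotype each, were used to see when a difference appeared. By its title, the series asks how acetylation of EED by CBP and P300 bears on the targeting of Polycomb repressive complex 2 (PRC2) and on mESC differentiation. The labels state neither how many clones stand behind each line nor whether replicates were separate cultures. The p-values therefore measure only the spread between replicate libraries, which may be technical, and genotype cannot be told apart from line. That spread was estimated over 16 libraries in 8 groups, day 2 included. Replicate counts differed most in FLAG-WT at day 10 (chi-square per degree of freedom 12.28). K19R at day 10 had 9.23, and groups of other days had from 2.36 to 10.06. The shared estimate may therefore understate the day 10 spread.

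PRC2 places methyl groups on lysine 27 of histone H3 at genes that a cell keeps silent, and EED is the core subunit that binds this mark and stimulates the catalytic subunit EZH2. CBP (gene Crebbp) and P300 (gene Ep300) are acetyltransferases that act at enhancers. In differentiating stem cells, Polycomb complexes silence lineage regulators such as Hox genes until they are needed, and the pluripotency network is shut down. Embryoid bodies without LIF form an outer layer of primitive endoderm, which gives visceral endoderm (a nutritive epithelium that secretes plasma proteins) and parietal endoderm (which makes basement membrane), around an inner mass of epiblast-like cells.

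The start of the Eed coding sequence is shown because it holds the codon that the K19R line replaces. It lies in exon 1 of Eed on the minus strand at chr7:89980436-89980525 (GRCm38, GENCODE), and the codon for lysine 19, at 89980469 to 89980471, is in capitals. The coding sequence has 441 codons, and the letters are those of the reference, not of the knock-in alleles.
Eed, first 90 coding bases: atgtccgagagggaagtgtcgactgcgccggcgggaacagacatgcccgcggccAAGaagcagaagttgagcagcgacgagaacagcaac

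The day 10 libraries held 23037982 and 23233301 counts in FLAG-WT and 24523524 and 23676035 in K19R. FLAG-WT libraries had 21678 and 21838 genes with a count, and K19R libraries had 24664 and 23885. Counts of a gene do not show the substitution, so they do not check the K19R label. The lines differed on the Y chromosome at day 10: the 5 Y-linked genes of the list summed to between 10.7 and 11.6 CPM (counts scaled to library size) in FLAG-WT and between 99.4 and 124 CPM in K19R, and 4 of the 5 were also higher in K19R at day 0, when 5.51% of all tested genes were higher and 4.98% lower. At day 0, the second FLAG-WT replicate stood apart in some endoderm genes, with 55.0 CPM of Afp against 1.78 in the first replicate. Bulk RNA cannot tell fewer cells of a type from less RNA per cell.

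Most of the tested genes differed at day 10. Of 19092 genes tested with edgeR's quasi-likelihood test, 11142 (58.4%) passed an adjusted p threshold of 0.05, 6336 (33.2%) higher and 4806 (25.2%) lower in K19R. Changes of at least 2-fold were called higher in 3352 genes (17.6%) and lower in 1402 (7.34%). Changes of at least 4-fold were mostly increases, with 1840 genes (9.64%) higher and 372 (1.95%) lower. The direction depended on the level of the gene. Of 4422 genes with a mean of 1 to 10 CPM in the higher group, 47.5% were higher and 14.6% lower. Of 3039 genes at 100 CPM or more, 16.2% were higher and 61.9% lower, with a median log2 change of -0.32. The median of all tested genes was 0.13, and genes are read against that value below. Counts of list members are read against the shares of 33.2% higher and 25.2% lower. Scaled by library totals only, the median moved by 0.30 to 0.44, calls were 9329 higher and 2785 lower, and genes at 100 CPM or more were called higher (36.1%) almost as often as lower (38.8%).

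**Figure D1:**
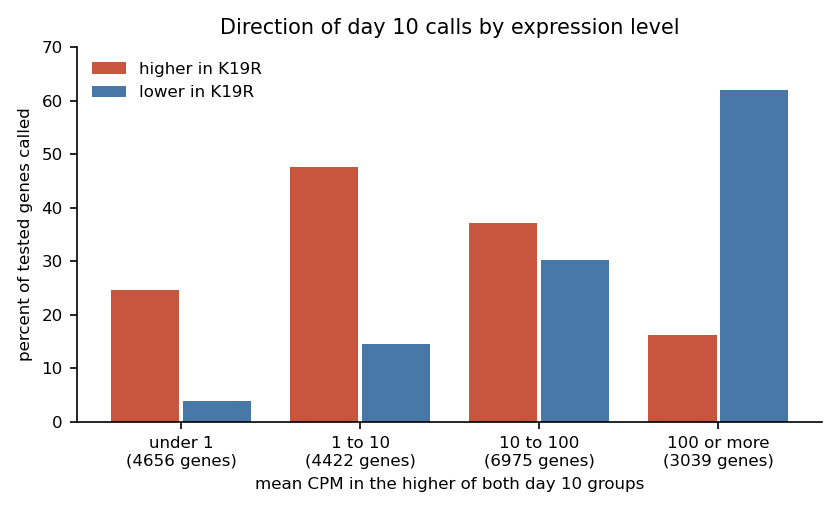
Percent of tested genes called higher (red) or lower (blue) in K19R at day 10, for 4 classes of mean CPM in the higher of both groups. Genes between 1 and 10 CPM were called higher in 47.5% and lower in 14.6%, and genes at 100 CPM or more the other way round, in 16.2% and 61.9%.

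Genes of the pluripotency network were higher in K19R. Of 11 core and general pluripotency genes, 10 were higher and 0 lower, with a median log2 change of 3.36. Sox2, the SOX factor that pairs with OCT4, had 2.09 and 2.57 CPM in the FLAG-WT libraries and 110.2 and 95.8 CPM in K19R (log2 change 5.47 ± 0.14 SE, edgeR adjusted p = 3.9e-20). Nanog, the homeobox factor of the naive network, had 6.21 and 3.91 CPM in FLAG-WT and 102 and 87.4 in K19R (4.22 ± 0.14, adjusted p = 3.3e-18). Neither gene's libraries overlapped between genotypes. With 2 libraries per group such separation is weak evidence, here and below, and its share over all tested genes was not counted. Pou5f1, which encodes OCT4, had 6.74 and 7.76 CPM in FLAG-WT and 97.9 and 80.8 in K19R (3.62 ± 0.13, adjusted p = 1.4e-17). These K19R levels were still far under those of day 0, when K19R held 527 CPM of Sox2, 1387 of Nanog and 964 of Pou5f1 on average. Lin28a, named after its values were seen, was the member that did not pass, at -0.03, and it was 0.27 with library totals only.

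Naive pluripotency genes split in both directions. Of 14 members, 10 were higher and 4 lower. Esrrb, an orphan nuclear receptor of the naive state, had 3.19 and 2.94 CPM in FLAG-WT and 93.7 and 68.3 in K19R (4.72 ± 0.17, adjusted p = 7.9e-18). Nr0b1, Tcl1 and Fgf4 were higher by 4.75 ± 0.25, 4.16 ± 0.23 and 4.06 ± 0.19, and Zfp42 (REX1) by 2.18 ± 0.12. The 4 lower members were Klf2, Klf4, Klf5 and Tfcp2l1. Klf2 had 271 and 287 CPM in FLAG-WT and 81.9 and 70.7 in K19R (-1.87 ± 0.09, adjusted p = 3e-15). The other 3 changed less, by -0.59 ± 0.08 for Klf5, -0.50 ± 0.08 for Klf4 and -0.45 ± 0.08 for Tfcp2l1. With library totals only, Klf4 (-0.19, adjusted p = 0.051) and Tfcp2l1 (-0.15, adjusted p = 0.086) no longer passed.

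**Figure D2:**
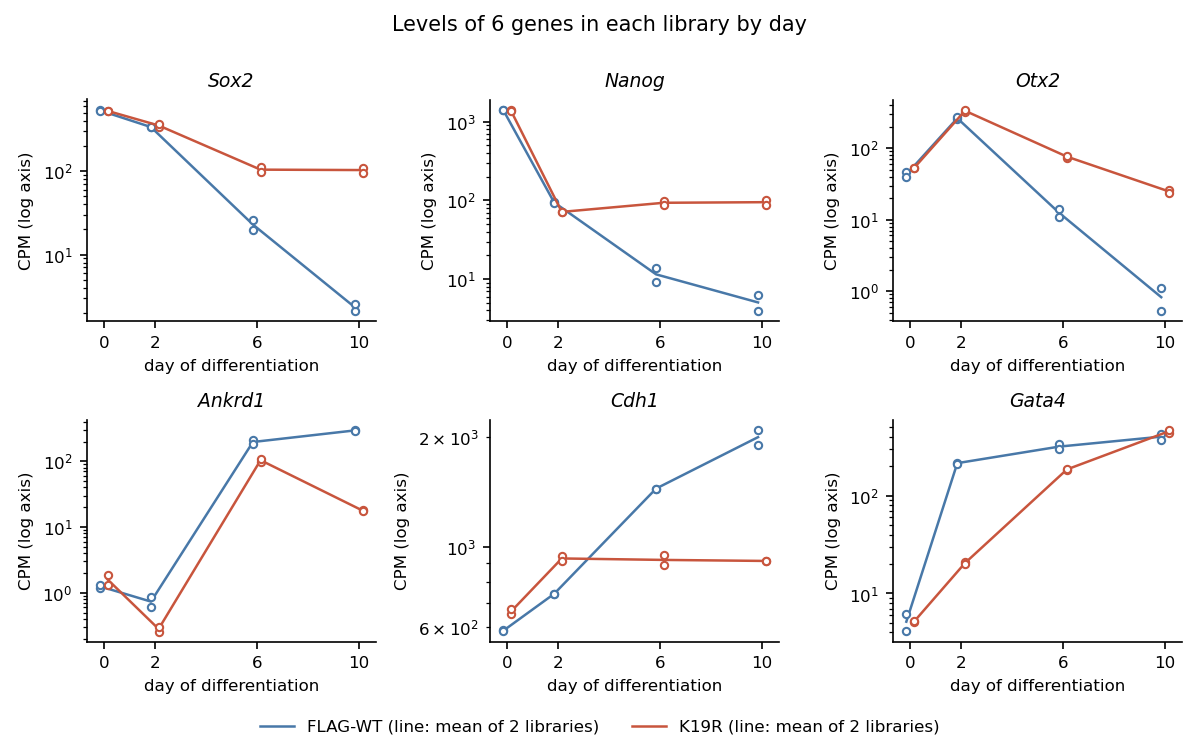
CPM of 6 genes in each library (circles, log axis) by day, with lines through the means of 2 libraries per genotype. At day 10, Sox2, Nanog and Otx2 lie higher in K19R, Ankrd1 and Cdh1 lie lower, and Gata4 lies close together (373 to 427 CPM in FLAG-WT, 438 to 469.5 in K19R).

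Genes of the formative and primed epiblast, the state between naive cells and gastrulation, were also higher: 11 of 12 passed as higher and 0 as lower, with a median of 2.82. Otx2, a homeobox factor of the primed epiblast and anterior neural tissue, had 0.522 and 1.12 CPM in FLAG-WT and 26.0 and 23.7 in K19R (4.91 ± 0.19, adjusted p = 6.2e-17). Cdh2, the N-cadherin gene, had 0.522 and 0.268 CPM against 24.9 and 22.1 (5.87 ± 0.28, adjusted p = 2.1e-15). Fgf5, the marker by which early epiblast is usually told from naive cells, had 0.104 and 0.321 CPM against 7.02 and 6.06 (4.92 ± 0.31, adjusted p = 1.5e-12). All 3 genes separated the genotypes without overlap. Dnmt3b, the de novo DNA methyltransferase of the epiblast, had 54.1 and 54.4 CPM in FLAG-WT and 177 and 200.5 in K19R (1.80 ± 0.08, adjusted p = 7.4e-16).

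Nodal is the TGF-beta family ligand that patterns the epiblast, with TDGF1 (CRIPTO) as co-receptor, FOXH1 as nuclear partner and the LEFTY proteins as secreted inhibitors. All 6 tested members of that list were higher, with a median of 3.48; Cer1 was not tested for low counts. Nodal had 3.45 and 3.64 CPM in FLAG-WT and 23.8 and 20.1 in K19R (2.63 ± 0.17, adjusted p = 1.1e-12). Lefty2 had 0.104 and 1.39 CPM against 35.7 and 34.0 (5.55 ± 0.26, adjusted p = 1.7e-15), without overlap. Tdgf1 and Foxh1 were higher by 4.34 ± 0.19 and 5.21 ± 0.21.

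WNT signalling drives the primitive streak, the site where mesoderm and endoderm arise. Of 16 WNT pathway genes, 11 were higher and 1 lower, with a median of 1.95. The ligand Wnt3 had 0.470 and 0.642 CPM in FLAG-WT and 5.23 and 7.13 in K19R (3.46 ± 0.29, adjusted p = 1.1e-10). Sfrp5, a secreted WNT inhibitor, had 0.888 and 0.642 CPM against 40.4 and 49.4 (5.86 ± 0.19, adjusted p = 1.9e-18), so an inhibitor and a ligand of the pathway were higher together. Rspo3, which amplifies WNT signals, was higher by 4.21 ± 0.44. Wnt11, a non-canonical ligand, was the lower member (-0.83 ± 0.16, adjusted p = 8e-05).

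Primitive streak genes followed at low levels. Of 14 tested members, 9 were higher and 2 lower, with a median of 2.37, or 1.94 when members at 0 counts in a group are set at their bound. T (Brachyury), the T-box factor of the streak and early mesoderm, had 0 counts in both FLAG-WT libraries and 5.07 and 4.58 CPM in K19R, at least 30.4-fold higher when each FLAG-WT library is set to 3 counts. Fgf8 had 1 count in FLAG-WT and 267 in K19R, a ratio of 208 (exact 95% interval 37.0 to 8232, counting error only). Eomes, a T-box factor of streak and endoderm, had 8.25 and 5.73 CPM against 25.1 and 26.0 (1.87 ± 0.16, adjusted p = 2.3e-10). Evx1 and Hand1 were higher too, Hand1 at 1.03 ± 0.019 CPM (SD) in FLAG-WT and 19.6 ± 0.82 in K19R (log2 change 4.24 ± 0.20, adjusted p = 2.8e-15). Snai1, a repressor of E-cadherin, was lower (-0.95 ± 0.14, adjusted p = 2.8e-06). The other lower member, Tbx6 (-0.73 ± 0.32, adjusted p = 0.049), did not pass with DESeq2 (adjusted p = 0.15), without the second FLAG-WT replicate (-0.34, adjusted p = 0.51), or without the first or second K19R replicate (adjusted p = 0.06 and 0.23).

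Of 10 primitive endoderm regulators, 4 were higher and 2 lower (33.2% and 25.2% of all tested genes), with a median of 0.20. The count became 6 higher and 1 lower without the first FLAG-WT replicate, with no expression filter, and with library totals only. Gata4, a zinc finger factor of endoderm and heart, had 427 and 373 CPM in FLAG-WT and 438 and 469.5 in K19R (0.18 ± 0.08, adjusted p = 0.062), ranges that did not overlap. It passed without the first FLAG-WT replicate (0.29, adjusted p = 0.012), without the first K19R replicate (0.24, adjusted p = 0.043) and with library totals only (0.48, adjusted p = 2.2e-05), and was at 0.10 without the second FLAG-WT replicate. Sox17 had 131 and 95.2 CPM against 130.1 and 133 (0.22 ± 0.10, adjusted p = 0.071). The second FLAG-WT library was the low one: Sox17 was at 0.47 (adjusted p = 0.00028) without the first FLAG-WT replicate, 0.02 (adjusted p = 0.92) without the second, and 0.52 (adjusted p = 0.0002) with library totals only. Hnf4a, the nuclear receptor of visceral endoderm and liver, was higher, at 244 and 184 CPM against 379 and 394 (0.85 ± 0.13, adjusted p = 5.3e-06; 0.79, adjusted p = 0.13 with DESeq2). Foxa2, a forkhead factor of endoderm, was lower, at 169 and 169.7 CPM against 87.1 and 90.2 (-0.93 ± 0.09, adjusted p = 2.5e-09). Sox7 and Foxa1 were higher by 1.91 ± 0.13 and 1.99 ± 0.21 from under 5 CPM. Gata6 (-0.21 ± 0.07, adjusted p = 0.02) did not pass without the first FLAG-WT replicate (-0.17, adjusted p = 0.11) or the second K19R replicate (-0.15, adjusted p = 0.15), and it turned to 0.10 with library totals only.

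The products of the endoderm were mostly lower. Of 18 tested genes for proteins that visceral endoderm secretes, 12 were lower and 3 higher, with a median of -0.73, and they summed to between 45781 and 46988 CPM in FLAG-WT and between 27237 and 27977 in K19R. Apoe, a lipoprotein of lipid transport, had 10554 and 11050.3 CPM in FLAG-WT and 5638 and 6694 in K19R (-0.81 ± 0.13, adjusted p = 7.8e-06). Trf (transferrin) had 96.1 and 98.7 CPM against 46.5 and 43.0 (-1.12 ± 0.11, adjusted p = 2.8e-09). Afp, the alpha-fetoprotein gene, had 21768 and 22781 CPM against 11197 and 9426, without overlap (-1.11 ± 0.45, adjusted p = 0.038). Its call was lost without any 1 of the 4 libraries (adjusted p from 0.054 to 0.14) and with DESeq2 (adjusted p = 0.2). The gene varied between the day 0 FLAG-WT replicates that share the fit. Ttr (transthyretin) went the other way, at 1162 and 1026 CPM against 1839 and 2002 (0.81 ± 0.26, adjusted p = 0.0099; 0.75, adjusted p = 0.64 with DESeq2). Ttpa, an alpha-tocopherol transfer protein, was higher by 3.53 ± 0.35. Of 10 genes for uptake and transport by visceral endoderm, 4 were lower and 0 higher, but 1 was lower and 4 higher with library totals only.

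Basement membrane genes, made in large amounts by parietal endoderm, were lower by about 1 on the log2 scale: 10 of 13 passed as lower and 2 as higher, with a median of -0.89. Lama1, the laminin alpha chain of the embryonic basement membrane, had 2586 and 3638 CPM in FLAG-WT and 1387 and 1018 in K19R (-1.37 ± 0.13, adjusted p = 1.2e-09). Its partners Lamb1 and Lamc1, named after their values were seen, changed by -1.22 ± 0.10 and -1.19 ± 0.11. Nid1 (nidogen, which links laminin to collagen IV) had 317 and 388 CPM against 115 and 98.0 (-1.73 ± 0.10, adjusted p = 1.1e-13). Col4a1 had 8486 and 10631 CPM against 5685 and 5274 (-0.80 ± 0.09, adjusted p = 2.1e-08), and Sparc 8362 and 10034 against 5643 and 5365 (-0.74 ± 0.08, adjusted p = 5.1e-09). The 2 higher members were Fst and Pth1r, a hormone receptor of parietal endoderm, at 77.1 and 64.8 CPM against 182 and 163 (1.28 ± 0.10, adjusted p = 8.1e-11). Markers of that tissue therefore moved in both directions.

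Epithelial genes were lower in K19R. Of 13 simple epithelium genes, 12 were lower and 0 higher, with a median of -1.13, and they summed to between 11863 and 12909 CPM in FLAG-WT and between 5296 and 5441 in K19R. Cdh1 (E-cadherin), which joins epithelial and stem cells, had 1908 and 2098 CPM against 916 and 911 (-1.13 ± 0.07, adjusted p = 2e-13). Krt18, a keratin of simple epithelia, had 3369.7 and 3868 CPM against 1112 and 1122 (-1.70 ± 0.12, adjusted p = 7.2e-12). Cldn4, a tight junction claudin, had 876 and 952 CPM against 266 and 206 (-1.95 ± 0.09, adjusted p = 1.7e-15). Day 0 levels of Cdh1 were 586 CPM in FLAG-WT and 662 in K19R, so its level at day 10 was above day 0 by more in FLAG-WT, as the plot of levels by day shows. With library totals only, 10 of the 13 were lower and 1 higher.

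Many of the deepest falls came from no fixed list, and those genes are named by the size of their change. Listed genes also fell deeply, among them Xist (-4.22), given below. Ankrd1, a cardiac stress protein and target of YAP and TEAD, had 301 and 289 CPM in FLAG-WT and 18.2 and 17.4 in K19R (-4.05 ± 0.09, adjusted p = 2.2e-21). Nppb, the natriuretic peptide that the stressed heart secretes, had 61.7 and 68.3 CPM against 2.27 and 3.01 (-4.62 ± 0.15, adjusted p = 2.2e-18). Plau, the urokinase protease, had 65.8 and 71.6 CPM against 1.99 and 2.16 (-5.04 ± 0.16, adjusted p = 9.5e-19), the deepest fall among genes at 10 CPM or more. The rule that named genes by the size of their change took only genes whose libraries did not overlap between genotypes. Sprr1a, a cornified envelope protein induced in injury, had 134 and 183 CPM against 10.7 and 8.61 (-4.03 ± 0.14, adjusted p = 3e-17). Sema7a (a semaphorin), Rnd1 (a small GTPase), Gprc5a (an orphan receptor) and Mucl3 fell by 3.94, 3.75, 4.14 and 4.38 on the log2 scale. Ctgf and Cyr61, matricellular proteins and textbook YAP targets chosen after their values were seen, had 1786 and 2278 CPM of Ctgf against 199 and 153 (-3.53 ± 0.12, adjusted p = 2.2e-18) and 1927 and 2176 CPM of Cyr61 against 313 and 259 (-2.84 ± 0.09, adjusted p = 1.1e-18).

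The 3 actin genes named here moved in different directions. Acta1, the skeletal muscle actin, had 428 and 334 CPM in FLAG-WT and 20.1 ± 1.4 CPM (SD) in K19R (-4.25 ± 0.13, adjusted p = 8.1e-19). Acta2, the smooth muscle actin, had 0.835 and 1.34 CPM against 36.5 and 36.2 (5.06 ± 0.18, adjusted p = 7.6e-18). Actg1, a cytoplasmic actin of every cell, had 8527 and 9634 CPM against 2763 and 2645 (-1.75 ± 0.09, adjusted p = 6.2e-15). The actin genes are similar in sequence, so counts of each are uncertain where reads map to more than 1 of them. Flnc, a filamin that crosslinks actin, chosen after its values were seen, had 961 and 1155 CPM against 103 and 85.8 (-3.48 ± 0.12, adjusted p = 5.8e-18).

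Immediate early genes, which growth factors and stress switch on within minutes, fell with them. Of 13 immediate early and heat shock genes, 11 were lower and 1 higher, with a median of -1.54. Fos had 164 and 179.8 CPM in FLAG-WT and 18.9 and 16.6 in K19R (-3.28 ± 0.10, adjusted p = 4e-19), and Fosb 48.5 and 49.1 against 3.55 and 4.37 (-3.62 ± 0.15, adjusted p = 2.3e-16). Egr1 had 109 and 109 CPM against 34.2 and 34.6 (-1.67 ± 0.09, adjusted p = 7.3e-14). The inducible heat shock genes Hspa1a and Hspa1b were lower too, Hspa1b by -3.20 ± 0.25, and they are near-identical copies whose counts are uncertain. Hspa1a had 41.9 and 107 CPM in the FLAG-WT libraries, a wider spread than the 5.19 and 4.03 CPM in K19R. Hsph1, a chaperone of the heat shock protein 110 kind, was the higher member (0.45 ± 0.07, adjusted p = 1.1e-05).

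Targets of the ERK pathway, which the MEK inhibitor of 2i blocks, split in both directions: 9 of 15 were lower and 6 higher, with a median of -0.67. Dusp5, a nuclear ERK phosphatase, had 181 and 211 CPM against 26.8 and 22.4 (-2.99 ± 0.10, adjusted p = 2.5e-18). Fosl1, Ier3 and Egr1 were lower as well, Fosl1 by 2.67 ± 0.22 on the log2 scale. Etv1 had 3 counts in FLAG-WT and 173 in K19R, a ratio of 44.8 (exact 95% interval 15.1 to 219.6), and Spred1, Etv4 and Spry2 were higher by 1.01 ± 0.11, 0.61 ± 0.10 and 0.58 ± 0.09. Hbegf and Egfr, a ligand and receptor upstream of ERK chosen after their values were seen, had 203 and 213 CPM of Hbegf against 24.5 and 24.1 and 120.4 and 154 CPM of Egfr against 18.5 and 16.1.

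Promoters of 4 lower genes are printed, chosen because they hold a motif, to show the motifs of the factors that textbook work ties to such genes: the serum response factor (CArG box), AP-1 (FOS and JUN) and TEAD. They are the 250 bases before the start site in RefSeq (GRCm38.p6), with matches in capitals.
Actg1, chr11:120348496-120348745, minus strand, CArG box: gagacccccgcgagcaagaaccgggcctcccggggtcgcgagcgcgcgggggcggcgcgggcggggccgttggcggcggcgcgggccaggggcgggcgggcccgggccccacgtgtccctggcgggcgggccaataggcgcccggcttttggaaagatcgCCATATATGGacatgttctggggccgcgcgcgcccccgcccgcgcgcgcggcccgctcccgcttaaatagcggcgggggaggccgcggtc
Dusp5, chr19:53528895-53529144, plus strand, CArG box: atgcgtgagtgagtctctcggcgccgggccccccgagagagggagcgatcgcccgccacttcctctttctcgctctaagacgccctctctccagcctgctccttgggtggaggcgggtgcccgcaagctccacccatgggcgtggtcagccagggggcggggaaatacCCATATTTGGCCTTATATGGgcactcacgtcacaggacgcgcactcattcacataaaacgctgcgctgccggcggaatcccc
Sprr1a, chr3:92485882-92486131, minus strand, AP-1: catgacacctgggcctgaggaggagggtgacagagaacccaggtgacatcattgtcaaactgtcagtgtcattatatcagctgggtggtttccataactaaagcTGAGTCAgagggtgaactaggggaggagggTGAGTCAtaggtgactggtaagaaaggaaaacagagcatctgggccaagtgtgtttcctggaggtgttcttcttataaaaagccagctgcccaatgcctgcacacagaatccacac
Ankrd1, chr19:36119845-36120094, minus strand, TEAD: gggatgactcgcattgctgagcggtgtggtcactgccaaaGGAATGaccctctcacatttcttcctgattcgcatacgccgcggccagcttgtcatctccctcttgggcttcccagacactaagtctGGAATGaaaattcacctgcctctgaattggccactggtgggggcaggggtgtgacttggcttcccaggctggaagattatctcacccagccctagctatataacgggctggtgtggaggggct

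Over 16430 such windows of 12912 tested genes, both strands searched, a CArG box stood in 1.22%, in 3.69% of the 244 windows of genes called at least 4-fold lower and in 0.951% of the 1472 windows of genes called at least 4-fold higher. The AP-1 motif TGANTCA stood in 4.91%, 12.3% and 5.77%, and the TEAD motif GGAATG in 11.2%, 16.8% and 13.2%. Of 14 lower genes whose windows were looked at one by one, 3 held a CArG box, 1 the AP-1 motif and 5 the TEAD motif. The windows of 6 held none, among them Fos, Fosb and Krt18. Sequence beyond these 250 bases was not searched, so a site farther from the start would be missed. Each of the 4 printed windows holds only 1 kind of motif. Genes that fell deeply therefore held each of the 3 motifs more often than all windows did, as a description of letters and with no test. The ratio of observed to expected CpG, low in promoters of tissue-specific genes, had a median of 0.66 over all windows, 0.49 in the deep falls and 0.40 in the large rises. A match is not a bound site.

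Mesenchyme genes were more often higher than lower. Of 13 tested mesenchyme and fibroblast genes, 8 were higher and 3 lower, with a median of 1.78 (1.49 with members at their bound), and the list summed to between 56.2 and 66.4 CPM in FLAG-WT and between 306 and 310.2 in K19R. Postn, the periostin gene of mesenchymal matrix, had 1 count in FLAG-WT and 968 in K19R (20.9 and 18.8 CPM), a ratio of 753 (exact 95% interval 135 to 29765). Col1a1, the main collagen of connective tissue, had 0.366 and 0.428 CPM against 11.5 and 18.7 (5.23 ± 0.34, adjusted p = 9.9e-13), and Col3a1 had 1 count against 145. Has2, which makes hyaluronan in cushion and mesenchymal matrix, had 0.104 and 0.107 CPM against 23.3 and 26.2 (7.80 ± 0.30, adjusted p = 3.1e-17). The groups did not overlap for any of these 4 genes. Tbx18, Pdgfrb and Twist1 were the lower members, at -1.76 ± 0.42, -0.52 ± 0.15 and -0.48 ± 0.13. With library totals only, Pdgfrb (-0.22, adjusted p = 0.2) and Twist1 (-0.17, adjusted p = 0.25) did not pass. The list then held 9 higher and 1 lower. Pdgfrb was at -0.36 without the second FLAG-WT replicate and at -0.37 without the first K19R replicate. Twist1 was at -0.35 without the first K19R replicate.

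**Figure D3:**
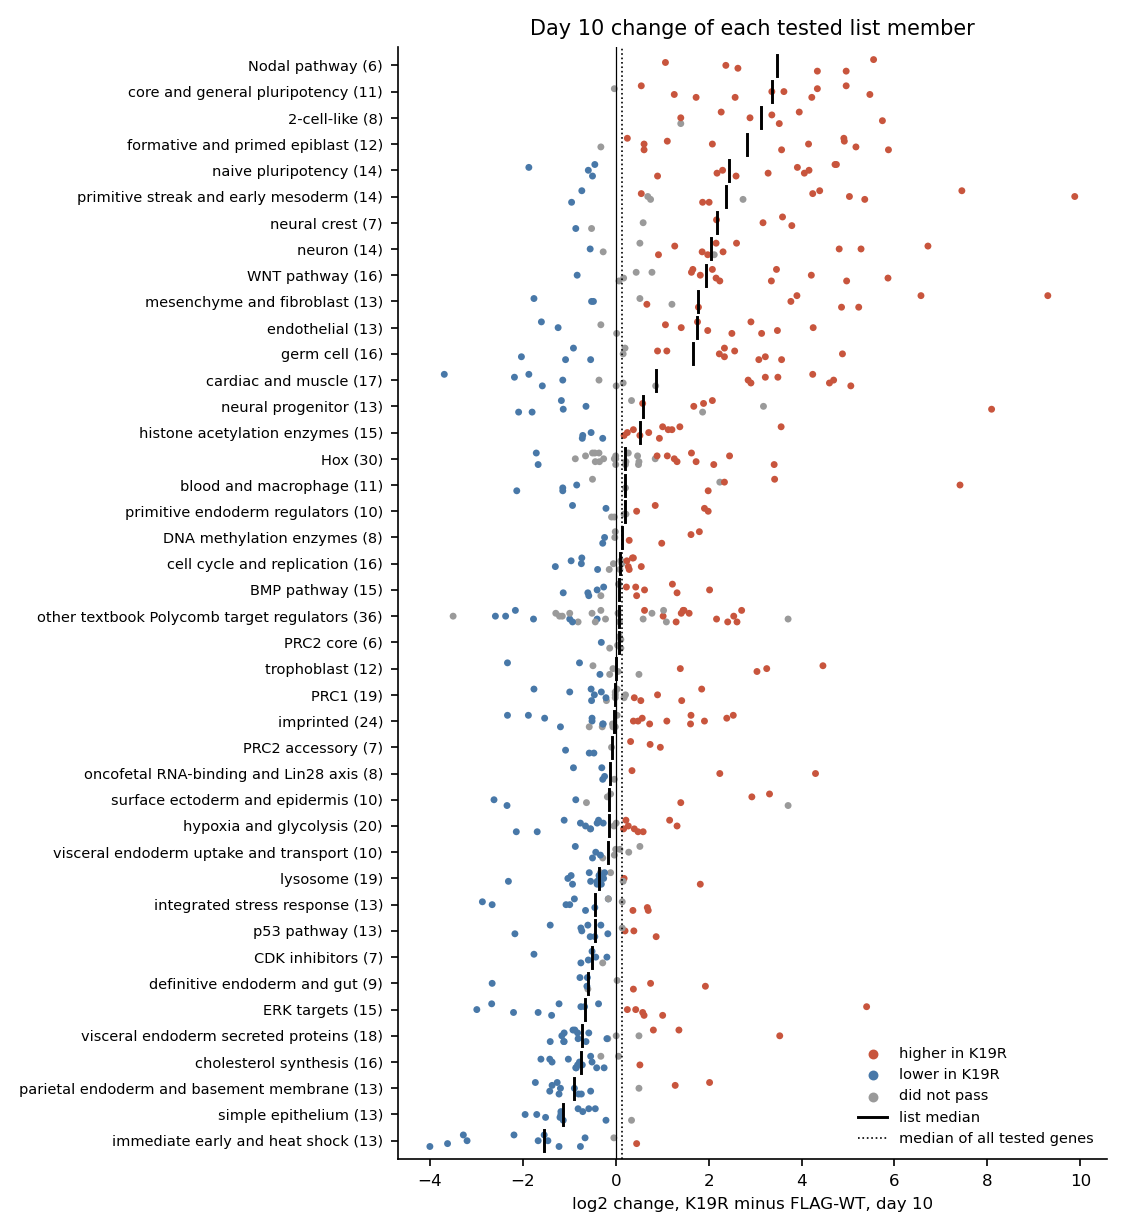
Log2 change at day 10 of each tested member of 42 gene lists (points: red higher, blue lower, grey did not pass), with the number tested in brackets, list medians as black bars and the median of all tested genes (0.13) as a dotted line. Nodal, pluripotency and epiblast lists lie at the top, and immediate early, simple epithelium and basement membrane lists at the bottom.

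Cardiac genes moved in both directions. Of 17 tested members, 8 were higher and 5 lower, against 33.2% and 25.2% of all tested genes. The regulators Hand1, Isl1, Hand2 and Nkx2-5 were higher, the last 3 (named after their values were seen) by 3.22, 2.91 and 2.85 from means under 0.3 CPM; Isl1 was at 4.96 without the second FLAG-WT replicate. Myl4, an atrial myosin light chain of the embryo, had 0.157 and 0.161 CPM against 4.35 and 3.56 (4.60 ± 0.40, adjusted p = 2.5e-10). Myh7, the slow myosin heavy chain, had 47.3 and 66.8 CPM against 4.63 and 4.20 (-3.69 ± 0.17, adjusted p = 9.7e-16), and Ryr2, the calcium release channel, 37.2 ± 8.2 (SD) against 10.1 ± 2.6 (-1.87 ± 0.15, adjusted p = 1e-10). Tnnt2, the cardiac troponin T by which heart muscle is usually recognised, had under 1 CPM in each of the 4 libraries and did not pass (-0.36 ± 0.40, adjusted p = 0.46). The high Myh7 and Acta1 of FLAG-WT thus stood beside little Tnnt2.

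Endothelial genes were more often higher, 9 of 13 against 2 lower, with a median of 1.76. Pecam1, an adhesion molecule of endothelium that stem cells also carry, had 2.92 and 4.12 CPM against 42.7 and 35.9 (3.48 ± 0.15, adjusted p = 2.3e-16), and day 0 cells held 345 CPM in FLAG-WT and 361 in K19R. The receptors Kdr and Tek were lower (-1.60 ± 0.19 and -1.24 ± 0.16), and Cdh5, VE-cadherin, named after its values were seen, did not pass (0.02). Of 11 tested blood and macrophage genes, 4 were higher and 4 lower, against 33.2% and 25.2% of all tested genes. Cd68, a lysosomal protein of macrophages and other phagocytic cells, had 586 and 724 CPM against 154 and 145 (-2.13 ± 0.09, adjusted p = 1.4e-16). Erythroid Klf1 had 0 counts in FLAG-WT and 42 in K19R, at least 5.46-fold higher, while the globins Hbb-y, Hbb-bh1, Hba-x and Hba-a1 had too few counts to be tested.

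Neuronal genes were mostly higher, and neural progenitor genes were not. Of 14 tested neuronal genes, 10 were higher and 1 lower, with a median of 2.05 (1.92 with a member at its bound). Stmn2, a microtubule regulator of neurites, had 0.366 and 0.749 CPM against 23.9 and 19.6 (5.28 ± 0.21, adjusted p = 6.2e-17), and Tubb3, neuronal beta-tubulin, 2.61 and 3.69 against 13.8 and 8.99 (1.86 ± 0.18, adjusted p = 2.9e-09). Both are high in stem cells as well, at 77.3 and 182 CPM in FLAG-WT at day 0. Of 13 tested neural progenitor genes, 5 were higher and 5 lower, against 33.2% and 25.2% of all tested genes. Nes, an intermediate filament of progenitors, had 175 and 151 CPM against 47.7 and 45.9 (-1.80 ± 0.08, adjusted p = 7.3e-16), and Pax6 and Sox21 were lower by 1.13 and 2.09 on the log2 scale. Fabp7, a lipid carrier of radial glia, had 0 counts in FLAG-WT and 68 in K19R, at least 8.70-fold higher. Sox1 was higher (1.89 ± 0.56, adjusted p = 0.0052), from under 0.3 to under 0.9 CPM, but not without the second K19R replicate (1.46, adjusted p = 0.072).

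Of 16 germ cell genes, 10 were higher and 4 lower, with a median of 1.67, while the list summed to between 539 and 541 CPM in FLAG-WT and between 319.7 and 364 in K19R. Dazl, an RNA-binding protein of germ cells, had 0.731 and 0.268 CPM against 14.7 and 15.2 (4.88 ± 0.24, adjusted p = 3.5e-15), and Stra8, a meiotic entry gene, was higher by 3.08 ± 0.44. Ddx4 (VASA), Kit, Taf7l and Tex19.1 were lower, Kit at 333 and 361 CPM against 179 and 149 (-1.08 ± 0.08, adjusted p = 5.5e-12). Of 8 tested genes of the 2-cell-like state, a rare totipotent-like state of stem cell cultures, 7 were higher and 0 lower. Zscan4c had 0.679 and 0.749 CPM against 8.58 and 7.85 (3.52 ± 0.21, adjusted p = 2.3e-13); the Zscan4 copies are near-identical, so their counts are not independent. Ifitm1, an interferon-induced membrane protein of early germ cells and stem cells, had 0.313 and 0.161 CPM against 35.5 and 32.2 (7.12 ± 0.19, adjusted p = 3.9e-20).

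Of 12 tested trophoblast genes, 4 were higher and 3 lower, close to the 33.2% and 25.2% of all genes, or 7 and 2 with library totals only. Plac1, a placental membrane protein, had 1.41 and 1.98 CPM against 11.4 and 16.5 (3.04 ± 0.21, adjusted p = 3.9e-12), and Prl3d1, the placental lactogen of giant cells, had 3 counts against 90. Mmp9, a matrix protease of invading trophoblast and leukocytes, had 0.313 and 0.214 CPM against 22.5 and 14.8 (6.12 ± 0.35, adjusted p = 8.9e-14). Phlda2, an imprinted growth limiter of the placenta, was at 123 and 122 CPM against 24.3 ± 4.6 (SD) (-2.33 ± 0.12, adjusted p = 1.8e-14). Serpinb9e, a serine protease inhibitor of a tandem cluster expressed in placenta, had 0.00 and 0.214 CPM against 14.1 ± 2.7 (SD) (6.99 ± 0.50, adjusted p = 7.3e-12; 11.45 without the second FLAG-WT replicate). Its family of near-identical copies had 5 of 7 tested genes higher and 1 lower.

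Hox genes, the best known Polycomb targets, did not rise as a group. Of 39 members, 30 were tested, of which 9 were higher, 2 lower and 19 did not pass, with a median of 0.21, and the whole list summed to between 44.2 and 46 CPM in FLAG-WT and between 41.2 and 51.9 in K19R. Over all genes tested at day 10, 33.2% were higher and 25.2% lower. The 9 higher genes were 5 of cluster A (Hoxa3, Hoxa4, Hoxa7, Hoxa10 and Hoxa13), Hoxc13 and 3 of cluster D (Hoxd8, Hoxd9 and Hoxd11), all under 7 CPM in every day 10 library. Hoxa7 had 0.940 and 0.642 CPM against 2.43 and 2.50 (1.63 ± 0.30, adjusted p = 4.3e-05). Hoxc13 had 3.03 and 2.94 CPM against 4.87 and 6.23 (0.89 ± 0.20, adjusted p = 0.00042). Hoxb9 was lower, at 5.17 and 6.05 CPM against 2.19 and 1.31 (-1.67 ± 0.27, adjusted p = 6.7e-06). Hoxb6, the other lower gene, had 0.0798 and 0.636 CPM in K19R and did not pass without either FLAG-WT replicate (adjusted p = 0.095 and 0.052) or without the first K19R replicate (-0.86, adjusted p = 0.29). 5 of the higher genes also rested on single libraries. Without the first FLAG-WT replicate the adjusted p was 0.18 for Hoxa4, 0.29 for Hoxa10, 0.27 for Hoxa13 and 0.1 for Hoxd9, and without the second it was 0.066 for Hoxa4 and 0.079 for Hoxd11. Without the first K19R replicate it was 0.13 for Hoxa13 and 0.051 for Hoxd9, and without the second 0.32 for Hoxa4 and 0.27 for Hoxa10. At day 6, 0 Hox genes passed as higher and 15 as lower in K19R, when 28.4% of all tested genes were higher and 30.1% lower.

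**Figure D4:**
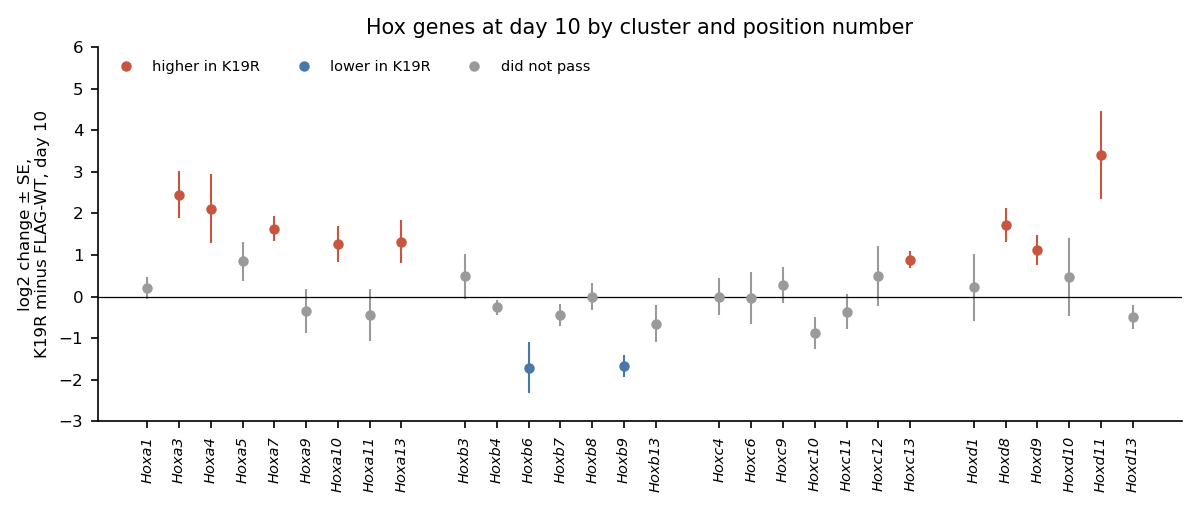
Log2 change at day 10 (points) with SE (bars) of the 29 tested Hox genes that gave an SE, grouped by cluster and ordered by position number; red points were higher, blue lower and grey did not pass. The 9 higher genes lie in clusters A, C and D, and both lower genes in cluster B.

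Of 36 other textbook Polycomb targets that were tested, all regulators of later lineages, 12 were higher and 7 lower, with a median of 0.06, close to the 33.2% and 25.2% of all genes. Foxc1, a forkhead factor of mesoderm and neural crest, had 0.731 and 0.482 CPM against 3.91 and 3.56 (2.61 ± 0.34, adjusted p = 4e-07), and Tbx2 was higher by 2.54 ± 0.43. Barx1, a homeobox factor of stomach and tooth mesenchyme, had 7.83 and 7.92 CPM against 1.28 and 1.78 (-2.37 ± 0.26, adjusted p = 2.1e-08), and Foxf1, a forkhead factor of visceral mesoderm, 7.10 and 6.91 against 1.24 and 1.91 (-2.16 ± 0.25, adjusted p = 3.6e-08). Without the second FLAG-WT replicate, or with library totals only, 4 were lower. The 40 listed genes summed to between 122 and 129 CPM in FLAG-WT and between 113 and 129.9 in K19R.

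Imprinted genes, which are expressed from the allele of 1 parent and can drift in cultured stem cells, went both ways, with 10 of 24 higher and 8 lower (13 and 5 with library totals only). The shares over all tested genes were 33.2% and 25.2%. H19, a growth-limiting noncoding RNA, had 13817 and 14380.2 CPM against 13189.8 and 14892, overlapping ranges (-0.01 ± 0.12, adjusted p = 0.98; 0.30, adjusted p = 0.034 with library totals only). Its neighbour Igf2 had 0.783 and 0.749 CPM against 2.79 and 3.01 (1.91 ± 0.44, adjusted p = 0.00053). Dlk1 had 99.5 and 124 CPM against 27.9 and 33.0 (-1.88 ± 0.11, adjusted p = 1e-13), and Meg3 of the same domain 4929 and 5766 against 2669.5 and 2016 (-1.19 ± 0.11, adjusted p = 6.7e-10). Igf2r, Nnat and Zdbf2 were higher by 1.62 ± 0.12, 2.39 ± 0.16 and 2.53 ± 0.18.

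The core PRC2 subunits had small differences whose calls depended on the scaling. Eed itself had 46.9 and 42.8 CPM against 50.0 and 47.0 (0.11 ± 0.08, adjusted p = 0.24). Ezh2 had 88.1 and 91.1 CPM against 93.0 and 96.9 (0.08 ± 0.07, adjusted p = 0.31), and Suz12 279 and 261 against 223 and 272 (-0.13 ± 0.08, adjusted p = 0.16). With library totals only, Eed was at 0.42 (adjusted p = 0.00014) and Ezh2 at 0.39 (adjusted p = 1.8e-05). Suz12 passed as lower with DESeq2 (-0.19, adjusted p = 0.038), with its size factors in edgeR (-0.19, adjusted p = 0.036) and without the second K19R replicate (-0.28, adjusted p = 0.0058), and was at 0.02 without the first and 0.17 with library totals only. Of 6 core genes, Ezh1, the second catalytic subunit, passed as lower (-0.31 ± 0.07, adjusted p = 0.00025), whereas 4 were higher and 0 lower with library totals only. Accessory subunits moved more: Phf19 and Mtf2, which tether PRC2 to CpG islands, were higher by 0.96 ± 0.23 and 0.74 ± 0.10, Jarid2 by 0.32 ± 0.07, while Lcor, which holds the PALI1 subunit, and Aebp2 were lower by 1.08 and 0.57 on the log2 scale. Among 19 PRC1 genes, 5 were higher and 7 lower (10 and 4 with library totals only), against 33.2% and 25.2% of all tested genes. Phc1, a polyhomeotic subunit of stem cells, had 29.9 and 34.2 CPM against 129 and 102 (1.85 ± 0.10, adjusted p = 6.2e-14).

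Of 15 histone acetylation enzymes, 11 were higher and 4 lower, with a median of 0.52. Crebbp had 23.5 and 20.6 CPM against 42.4 and 42.1 (0.94 ± 0.11, adjusted p = 5.9e-08). Ep300 had 139 and 120.3 CPM against 149 and 158 (0.25 ± 0.10, adjusted p = 0.031). It did not pass with DESeq2 (0.19, adjusted p = 0.14) or with DESeq2's kind of size factors in edgeR (0.18, adjusted p = 0.1). Nor did it pass in edgeR with the day 10 libraries alone (0.22, adjusted p = 0.059). In each of these settings 9 of the 15 enzymes were higher and 4 lower. Ep300 was at 0.15 without the second FLAG-WT replicate and at 0.21 without the second K19R replicate. Kat6b, Kat2b and Sirt1 were higher by 1.38 ± 0.10, 1.21 ± 0.11 and 1.13 ± 0.11, and Hdac4, Kat7 and Hdac5 were lower by 0.72, 0.71 and 0.53 on the log2 scale. Among DNA methylation genes, Tet1, an oxidase of methylated cytosine in stem cells, had 21.4 and 21.6 CPM against 69.8 and 62.0 (1.62 ± 0.13, adjusted p = 4.6e-11), and Tet2 was higher by 0.99 ± 0.13.

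Of 16 cell cycle and replication genes, 6 were higher and 5 lower, or 11 and 4 with library totals only. The shares over all tested genes were 33.2% and 25.2%. Mki67, a mark of cycling cells, had 173 and 142 CPM against 233 and 228 (0.55 ± 0.10, adjusted p = 3.2e-05), whereas Cdk1 had 194 and 194 against 114 and 119 (-0.74 ± 0.06, adjusted p = 3.6e-10). Ccnd2 and Ccnd3, cyclins of differentiated cells, were lower by 1.30 and 0.96 on the log2 scale. Of 7 CDK inhibitors, 6 were lower and 0 higher, or 3 and 0 with library totals only. Cdkn2b had 46.9 and 52.4 CPM against 14.6 ± 2.2 (SD) (-1.76 ± 0.12, adjusted p = 2.2e-12) and Cdkn1a, the p53 target p21, 437 and 414 against 255 and 251 (-0.75 ± 0.07, adjusted p = 1.6e-09). Of 13 p53 pathway genes, 9 were lower and 3 higher, or 6 and 4 with library totals only: Pmaip1 (NOXA) had 197 and 192 CPM against 41.2 and 45.4 (-2.17 ± 0.10, adjusted p = 6.2e-16) and Bbc3 (PUMA) 138 and 176 against 59.3 and 58.9 (-1.41 ± 0.09, adjusted p = 7.6e-13), while Trp53 itself was higher (0.87 ± 0.07, adjusted p = 3.2e-11).

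Stress, lipid and lysosomal genes were mostly lower. Of 13 genes of the integrated stress response, 8 were lower and 3 higher, or 6 and 4 with library totals only. Ddit3 (CHOP) had 47.8 and 103 CPM in FLAG-WT and 10.5 and 10.0 in K19R (-2.87 ± 0.21, adjusted p = 1.3e-11), with a wide FLAG-WT spread, and Atf3 295 and 356 against 53.4 and 49.3 (-2.66 ± 0.09, adjusted p = 2.5e-18). Asns, asparagine synthetase, was higher (0.70 ± 0.08, adjusted p = 3.2e-08). Of 16 genes of cholesterol synthesis and uptake, 13 were lower and 1 higher, with a median of -0.75. Sqle, squalene epoxidase, had 103 and 131 CPM against 38.3 and 49.2 (-1.42 ± 0.11, adjusted p = 2.4e-11). Of 19 lysosomal genes, 14 were lower and 2 higher, but 6 and 4 with library totals only. Ctsd, a lysosomal protease, had 781 and 893 CPM against 409 and 408 (-1.03 ± 0.08, adjusted p = 9.7e-12).

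Genes of hypoxia and glycolysis moved in both directions. Of 20, 8 were higher and 9 lower (10 and 6 with library totals only), against 33.2% and 25.2% of all tested genes. The glycolytic enzymes Pfkl, Pkm, Gapdh and Eno1 were higher by 1.16 ± 0.07, 0.59 ± 0.07, 0.59 ± 0.07 and 0.48 ± 0.07, with 1500.1 and 1609 CPM of Gapdh in FLAG-WT against 2351 and 2338. The secreted or stress-linked members Vegfa, Adm and Ndrg1 were lower, Vegfa at 287 and 309.9 CPM against 179 and 174 (-0.76 ± 0.07, adjusted p = 3.7e-10). Hk1 was lower too (-1.11 ± 0.10, adjusted p = 7.1e-10), so glycolytic enzymes did not all move together.

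Sex chromosome genes differed between the lines. All 5 listed Y-linked genes passed as higher. The helicase gene Ddx3y had 5.80 and 4.92 CPM against 32.5 and 42.8 (2.81 ± 0.14, adjusted p = 8.1e-15), Eif2s3y 4.28 and 4.71 against 45.8 and 53.5 (3.46 ± 0.12, adjusted p = 2.5e-18) and Uty 1.57 and 1.07 against 18.3 and 24.9 (4.02 ± 0.20, adjusted p = 5.1e-15). Kdm5d had 0 counts in FLAG-WT and 91 in K19R, at least 11.8-fold higher, and Zfy1 0 and 54, at least 7.04-fold higher. Xist, the RNA that coats an inactive X chromosome, had 29.3 and 33.9 CPM against 1.76 and 1.61 (-4.22 ± 0.15, adjusted p = 1.4e-17), and its antisense partner Tsix 1 count against 33. The recorded counting gave no strand option, so reads of the 2 genes cannot be told apart where they overlap. The median change of 702 tested X-linked genes was 0.25 at day 10, when the autosomes ranged from 0.06 to 0.30. At day 0 it was -0.12, below the autosomal range of -0.03 to 0.06. Xist and Tsix also differed at day 0, 1 of them higher and 1 lower in K19R. What the Y-linked difference contributes to other differences was not tested.

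Most of the day 10 calls were not present in the same direction at day 0. At day 0, 2003 genes (10.5%) differed between the genotypes, of which 1446 also passed at day 10, 740 in the same direction (36.9% of the day 0 calls and 6.64% of the day 10 calls) and 706 in the opposite one. The genotype difference itself changed between day 0 and day 10 for 8584 genes (45.0%), 4991 (26.1%) toward higher and 3593 (18.8%) toward lower in K19R. Pluripotency genes were among them: 10 of 11 core members changed upward and 0 downward, and Sox2, which did not pass at day 0 (534 and 527 CPM on average), changed by 5.48 (adjusted p = 5.4e-18). Of 13 simple epithelium genes, 11 changed downward and 0 upward. Cdh1 changed by -1.31 (adjusted p = 2.7e-11), and Ankrd1, at 1.25 and 1.59 CPM on average at day 0, by -4.42 (adjusted p = 1.8e-12). Some lists already differed at day 0, when 5.51% of all tested genes were higher and 4.98% lower in K19R. Of 18 secreted visceral endoderm genes, 11 were lower and 1 higher, with a median of -2.71. Of 16 germ cell genes, 8 were lower and 1 higher, and of 20 hypoxia and glycolysis genes, 11 were higher and 0 lower. The second FLAG-WT day 0 replicate stood apart in some endoderm genes.

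**Figure D5:**
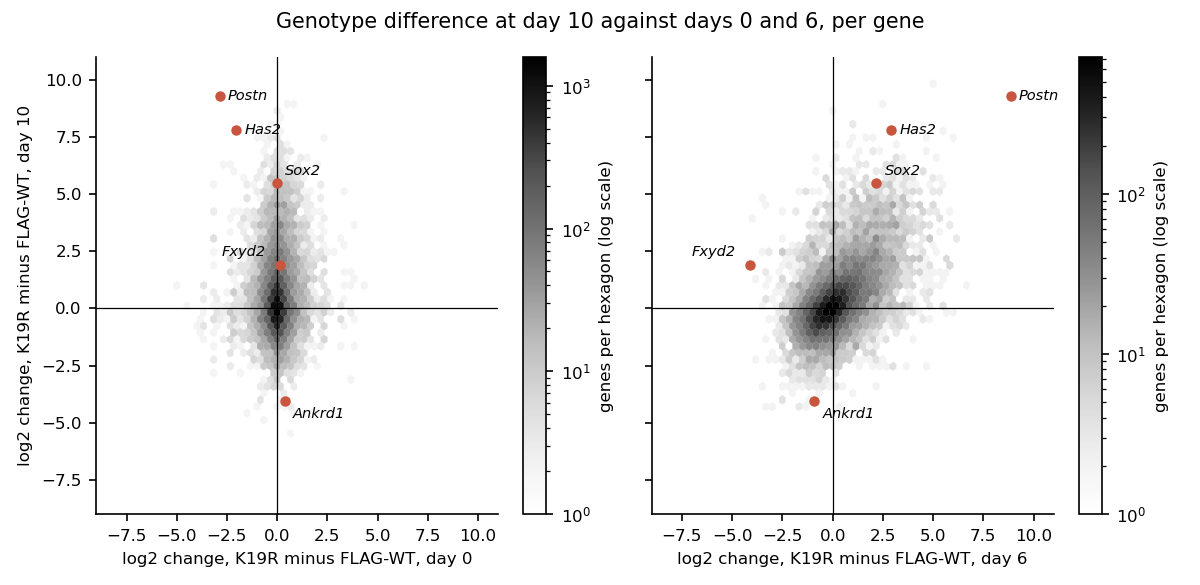
Log2 change between K19R and FLAG-WT at day 10 (vertical axis) against that at day 0 (left) and day 6 (right) for 19092 genes, shaded by the number of genes per hexagon, with 5 genes marked in red. Sox2 and Ankrd1 lie near 0 at day 0 and far from it at day 10, and Fxyd2 changed sign between days 6 and 10.

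By day 6 as many genes differed as at day 10 (11171, 58.5%), and 7738 passed on both days, 6515 in the same direction (58.5% of the day 10 calls and 58.3% of the day 6 calls). Between day 6 and day 10 the difference changed for 7440 genes (39.0%), 4650 (24.4%) upward and 2790 (14.6%) downward. Endoderm genes closed part of the gap. At day 6, 8 of 10 primitive endoderm regulators and 15 of 18 secreted visceral endoderm genes were lower in K19R, and from day 6 to day 10 all 10 and 15 of the 18 changed upward, with 0 downward. Gata6, at 109 CPM in FLAG-WT and 32.5 in K19R at day 6, changed by 1.54 (adjusted p = 1.9e-11), and Gata4 by 0.96 (adjusted p = 3.6e-07). Apoe changed by 1.25 (adjusted p = 4.9e-06) from 12146 and 2918 CPM. Lysosomal genes did the same, with 17 of 19 lower at day 6 and 16 changing upward by day 10, and so did Hox genes, with 13 of 30 changing upward and 0 downward.

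Of 11 core pluripotency genes, 10 changed upward between day 6 and day 10. At day 6, 8 were higher and 2 lower in K19R; the lower ones were Lin28a (-0.86) and L1td1 (-0.27), named after their values were seen, and at day 10 L1td1 was higher (1.26). Sox2 changed by 3.29 (adjusted p = 7.8e-13): FLAG-WT averaged 22.9 CPM at day 6 and 2.33 at day 10, and K19R 104 and 103. Nanog changed by 1.22 (adjusted p = 2.1e-05), with 11.5 and 5.06 CPM in FLAG-WT and 93.0 and 94.5 in K19R. Acta1 and Ankrd1 changed downward, Acta1 by -4.50 (adjusted p = 7.1e-16) from 134 and 159.9 CPM at day 6 and Ankrd1 by -3.13 (adjusted p = 7.1e-16). Cell cycle genes also moved downward relative to day 6, 11 of 16 with 0 upward.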

How the data were processed

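RNA-seq of total RNA from 16 FLAG-EED libraries (2 per genotype and day) was used. The authors deposited whole-number counts per gene, made with featureCounts 1.6.3 on GENCODE vM19 with no strand option, per the file headers. Trim Galore 0.6.0 and STAR 2.7.0c are listed in the submitters' processing notes. From these counts, genes passing edgeR's expression filter (minimum count 10, total 15) were scaled by TMM and fitted with edgeR 4.0.16 (R 4.3.3) over all 8 groups, which share 1 estimate of spread. Quasi-likelihood tests were adjusted by Benjamini-Hochberg over all tested genes at 0.05, and the test was tried on simulated data. SE is the absolute log2 change divided by the square root of F. CPM uses TMM-scaled library sizes. Exact 95% intervals and floors of 3 counts cover counting error only. The gene lists and members were chosen with earlier results of these data known. Genes named in the text are list anchors and the called list members of largest change (up to 4 per direction). The 12 largest changes in each direction at 10 CPM or more were named too, taken only from genes whose libraries did not overlap between genotypes. Also named are the 6 largest CPM differences per direction, Hox and Y-linked genes, and the 6 largest interactions per direction. Some items that these rules give are not reported here. Other named genes were chosen after their values were seen. Alternatives were DESeq2 1.42.0, other scalings and filters, the day 10 libraries alone, a replicate block and leaving out each library.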

Additional observations from a re-analysis of the deposited data

Results flagged for a closer look

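The difference between genotypes changed from day 0 to day 10 in 8584 genes and from day 6 to day 10 in 7440 genes, by edgeR's interaction test. From day 0, the genes that changed most downward in K19R against FLAG-WT were Plau (-5.79), Mucl3 (-5.03), Gprc5a (-4.74), Ankrd1 (-4.42), Scel (-4.23) and Nppb (-4.19) on the log2 scale. Those that changed most upward were Postn (12.16), Has2 (9.85), Pla2g4e (8.58), Sgo2b (8.38), Ttr (8.30) and Gbp2 (7.51). Fitted values of genes with few counts in a group, such as Postn, depend on the prior count and are no bounds. Without the second FLAG-WT day 0 replicate, Has2 was at 5.48 (adjusted p = 0.99), Ttr at 3.14 (adjusted p = 0.085) and Scel at -7.37. Scel was at -4.08 (adjusted p = 0.063) without the first K19R day 0 replicate.

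From day 6, the largest downward changes were those of Vgf (-4.53), Acta1 (-4.50), Scn3b (-3.89), Thbs1 (-3.84), Rin1 (-3.84) and Sema3c (-3.82). The largest upward changes were those of Fxyd2 (6.04), Mmp9 (5.01), Has2 (4.89), Sfrp5 (4.80), Enpp2 (4.50) and Prlr (4.38). Fxyd2, a regulator of the sodium pump, changed direction: it averaged 81.6 CPM in FLAG-WT and 4.68 in K19R at day 6, and 11.6 ± 3.3 CPM (SD) against 43.6 ± 13 at day 10.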

How the results depend on the processing

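The settings covered different numbers of genes, so their counts of calls are not shares of the same total. The main fit and library totals only covered 19092 genes, the day 10 libraries alone 15975 and DESeq2 35107. The number of genes called at day 10 (11142) lay between 9364 with the day 10 libraries alone and 12114 with library totals only. It was 10015 with DESeq2, and from 9420 to 10290 leaving out 1 library, where the lone sample is assumed to vary like the other groups. The interaction counts ranged from 7451 to 8339 (day 0) and from 6355 to 7282 (day 6) leaving out 1 library. The share of calls that were higher was 56.9%, 52.2% with DESeq2's kind of size factors, 51.2% with DESeq2 and 77.0% with library totals only. With library totals only, Gata6 was at 0.10, H19 at 0.30 and Lin28a at 0.27; the construction moved the median of all genes by 0.30. Replicate numbers did not pair the libraries: deviations of same-numbered day 10 libraries correlated at -0.03, and the replicate block gave 11041 calls at day 10, 8470 for day 0 and 7350 for day 6. In simulated data for the day 10 comparison (18641 genes), the test recovered 99% of 100 genes changed 2-fold, with 10 false calls. Smaller changes were not simulated. Far fewer genes were changed there than the 11142 called in the real data. The 99% therefore does not measure recovery in these data.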

Other observations

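The families here were chosen after their values were seen. Of 13 protein-coding genes of the mitochondrial genome, 9 were higher and 1 lower in K19R at day 10, with a median log2 change of 0.78, and 0 differed at day 0. mt-Cytb, a subunit of respiratory complex III, had 134 and 86.8 CPM in FLAG-WT and 1099.7 and 839.7 in K19R (3.14 ± 0.17). mt-Co1, a subunit of complex IV, was the lower member, at 20089.7 and 20550.0 CPM against 12717 and 12826 (-0.67 ± 0.10), so transcripts of 1 genome moved in opposite directions. The mitochondrial genome's share of all day 10 counts did not rise: 1.988% and 1.905% in FLAG-WT, 1.922% and 1.854% in K19R. Of 40 nuclear complex I subunits, 7 were higher and 5 lower, 5 and 6 with DESeq2's size factors in edgeR, and 30 and 2 with library totals only.

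Of 37 collagens, 22 were higher and 6 lower, with a median of 1.11, whereas 7 of 11 laminins were lower and 1 higher, with a median of -1.18. Of 48 replication-dependent histone genes, 17 were lower and 1 higher; these transcripts lack long poly(A) tails. Cytosolic ribosomal protein genes gave no stable direction, with 14 of 84 higher and 5 lower, 5 and 12 with DESeq2's kind of size factors, and 70 and 1 with library totals only. Of 2053 long noncoding genes, 24.5% were higher and 11.9% lower, against 36.0% and 28.4% of 15536 protein-coding genes.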
